A study of Rattus norvegicus with 18 samples.

Results

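The solvent control cells of this study are NRK-52E cells, a rat kidney line of proximal tubule origin, that received only the solvent DMSO at 0.1%. The treated cells received aristolochic acid (AA), a plant nephrotoxin, at 1.65 µM in the same solvent. The comparison described here sets the 3 DMSO arrays at 24 h against the 3 DMSO arrays at 6 h, 6 of the 18 arrays of the series; all groups were of one line, from the Osborne-Mendel strain per the labels, grown with 10% fetal calf serum and confluent when exposure began. Groups of 3 arrays each also cover DMSO at 72 h and AA at 6, 24 and 72 h. The labels call the arrays of a group biological replicates without saying what separated them, and p-values therefore rest on the spread among arrays, which may be technical. There is no array at 0 h and none of cells without DMSO, so time in DMSO, time at confluence and time since the medium was applied cannot be told apart.

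A cell population that reaches confluence is known to leave the division cycle: transcripts of DNA replication and mitosis, which cycling cells switch on in turn, decline, and growth programmes such as ribosome production are reduced. Resting cells can also grow a primary cilium, the sensory antenna that is dismantled before division. In cultured cells a change of serum can also set the circadian clock, a feedback loop in which Bmal1 and Clock activate output factors such as Dbp as well as the Per and Cry genes, and the Per and Cry proteins then repress Bmal1 and Clock.

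Between 6 h and 24 h the solvent control cells lost transcripts of mitosis and DNA replication, and none of the measured genes of these lists rose. Transcripts for making ribosomes and for the endoplasmic reticulum (ER) stress response also fell. Those of fatty acid oxidation and intraflagellar transport were mostly higher at 24 h, as were 11 of 20 interferon-stimulated genes. Clock genes moved in both directions, 7 up and 3 down of 16. The difference was tested for 9015 genes with limma, which adjusts p over all genes by the Benjamini-Hochberg method, and a gene passed at an adjusted p under 0.05. In all, 5296 genes (58.7%) passed, 2549 higher at 24 h (28.3%) and 2747 lower (30.5%). Of these, 529 were at least 2-fold higher (5.87%) and 565 at least 2-fold lower (6.27%). Levels are log2 expression values, so a difference of 1 is a 2-fold change and a difference of 2 is a 4-fold one. The median difference over all genes was -0.01 and the median size of the change among the genes that passed was 0.58. The 3 arrays of 24 h all lay above those of 6 h for 2826 genes (31.3%) and all below for 2967 (32.9%), so 64.3% of genes had no overlap between the times. List counts for this step are to be read against the 28.3% of all genes higher and 30.5% lower.

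The 6 arrays were closely alike within each time. Correlations over all probe sets ran from 0.9974 to 0.9984 at 6 h and from 0.9968 to 0.9989 at 24 h, with a median SD of 0.117 at both times. The first principal component, 84.5% of the variance, put the 6 h arrays between -36.5 and -28.3 and the 24 h arrays between 31.7 and 34.0. The second, 5.79%, set DMSO 24 h replicate 3 apart at -16.1, with the other 24 h arrays at 8.91 and 7.24. For 6 quality measures the exact two-sided permutation p ran from 0.1, the smallest that 3 against 3 arrays allow, to 0.6 (0.45 to 0.6 after Benjamini-Hochberg adjustment over the 6). The 3′ to 5′ difference of the beta-actin control probe sets, a sign of RNA integrity, was 1.14 to 1.17 at 6 h and 1.18 to 1.27 at 24 h; its part in the results below was not tested.

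**Figure D1:**
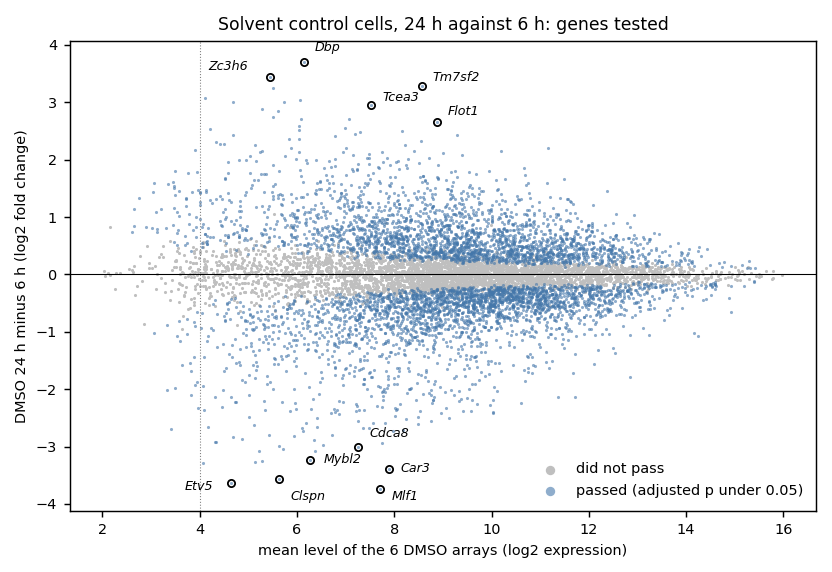
Each point is 1 of 9015 genes: the x axis is the mean log2 expression of the 6 DMSO arrays and the y axis the log2 difference, 24 h minus 6 h; blue points passed the limma test and the dotted line marks log2 4. Dbp (3.70), Zc3h6 and Tm7sf2 lie at the top, and Mlf1 (-3.74), Etv5 and Clspn at the bottom.

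The label of a proximal tubule line was checked against marker genes. Of 35 proximal tubule transporters and enzymes on the array, 28 did not reach log2 4 on 3 arrays and were not tested; among them the cotransporters Slc34a1 (2.25 at 6 h) and Slc5a2 (2.28), the endocytic receptors Lrp2 (2.30) and Cubn (1.93) and the factor Hnf4a (2.31) were near the lowest values of the array at both times. Of the 7 tested, Abcc4 (9.01 at 6 h, 8.08 at 24 h), Slc4a4 (8.44, 8.68), Mme (5.91, 6.31) and Gatm (5.83, 7.72) were above log2 4. Ggt1 (5.86, 3.99), Slc7a9 (4.03, 5.03) and Aqp1 (2.08, 3.21) were near or under it at 6 h, 24 h or both. Of 29 epithelial junction and identity genes 11 were tested and 18 were not. The scaffold Tjp1 (13.40 at 6 h, 13.62 at 24 h), plakoglobin Jup (12.15, 12.35), the junction protein F11r (11.02, 11.80) and the keratin Krt8 (13.63, 13.81) were well above log2 4, whereas the adhesion genes Cdh1 (2.54, 2.57) and Epcam (2.39, 2.42) and the keratins Krt18 (2.31, 2.33) and Krt19 (2.32, 2.34) were not. The mesenchymal filament gene Vim stood at 14.95 and 15.08. The examples of this check were picked after their values were seen.

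Of the 40 gene lists compared, mitosis had the lowest median. All 54 tested genes of a G2/M and mitosis list (56 on the array) fell, 52 of them at least 2-fold, with a median of -2.03 and a range from -3.01 to -0.57, against 30.5% of all genes lower. Cdca8, which encodes borealin of the chromosomal passenger complex, read 8.43, 9.04 and 8.83 at 6 h and 5.33, 5.99 and 5.94 at 24 h. The highest 24 h array lay more than 2 log2 units under the lowest 6 h array. Its difference was -3.01 ± 0.22 (SE; limma adjusted p = 1.25e-09). Mki67, the proliferation marker Ki-67, read 11.55, 11.83 and 11.68 at 6 h and 9.88, 9.91 and 10.10 at 24 h, a difference of -1.72 ± 0.11. Cyclin B1 (Ccnb1), the partner of Cdk1 that drives entry into mitosis, fell by 2.26 and Cdk1 itself fell by 1.38. Cenpe, a kinetochore motor, fell by 2.79, Melk, a kinase of mitotic cells, by 2.73, and Cenpt, a centromere protein, by 2.72, or by 1.35 when the median of its probe sets was used. In each of these genes the 3 arrays of 24 h lay below the 3 of 6 h. The mean level of the list per array was 9.98 to 10.25 at 6 h and 8.02 to 8.26 at 24 h.

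DNA replication genes fell nearly as uniformly. Of 52 tested genes of a G1/S and DNA replication list (53 on the array) 50 fell, 42 at least 2-fold, and none rose; the median was -1.52. The other 2 were the licensing factor Cdt1 (-0.21, adjusted p = 0.103) and Timeless (-0.02, adjusted p = 0.88), a replication fork protein; they are named for not passing, after their values were seen. Clspn, the adaptor of the replication checkpoint kinase, read 7.26, 7.49 and 7.5 at 6 h and 4.38, 3.55 and 3.66 at 24 h. The 24 h arrays lay at or near log2 4, below which signal and background are hard to separate. Its difference was -3.56 ± 0.23 (SE; limma adjusted p = 2.72e-10). E2f7, a repressor of the E2F family, fell by 2.82, Pole2, a subunit of a replicative polymerase, by 2.51, and Chaf1a, which loads histones behind the fork, by 2.47. Cyclin E1 (Ccne1), which acts at the entry to S phase, fell by 1.61.

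Sequences upstream of 4 of these genes are printed because mitotic and replication genes are known to share promoter elements: the CHR element TTTGAA and the CCAAT box of mitotic genes, and E2F sites of replication genes. Each is the 250 bases before the annotated start, 5′ to 3′ on the gene's strand, from RefSeq, build GRCr8: Cdca8 at chr5:142483200-142483449 on the minus strand, Cenpe at chr2:226310807-226311056, Clspn at chr5:144134387-144134636 and E2f7 at chr7:48036653-48036902, all 3 on the plus strand. Capitals mark TTTGAA and CCAAT on either strand (TTCAAA and ATTGG on the other) in the first pair, and TTTNNCGC and CCAAT in the second pair.
Cdca8: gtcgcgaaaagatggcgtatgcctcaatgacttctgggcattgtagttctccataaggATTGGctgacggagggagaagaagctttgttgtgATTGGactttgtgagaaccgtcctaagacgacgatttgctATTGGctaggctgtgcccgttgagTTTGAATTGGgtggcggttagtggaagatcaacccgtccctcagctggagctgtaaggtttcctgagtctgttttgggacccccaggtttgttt
Cenpe: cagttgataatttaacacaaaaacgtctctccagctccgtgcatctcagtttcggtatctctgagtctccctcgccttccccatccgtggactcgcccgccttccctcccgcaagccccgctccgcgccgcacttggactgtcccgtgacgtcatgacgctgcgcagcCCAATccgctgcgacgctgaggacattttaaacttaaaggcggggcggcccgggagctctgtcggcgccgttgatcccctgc
Clspn: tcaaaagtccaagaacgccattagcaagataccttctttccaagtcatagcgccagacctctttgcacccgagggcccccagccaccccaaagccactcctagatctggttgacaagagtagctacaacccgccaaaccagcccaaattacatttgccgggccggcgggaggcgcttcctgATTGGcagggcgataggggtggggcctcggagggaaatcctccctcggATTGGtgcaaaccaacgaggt
E2f7: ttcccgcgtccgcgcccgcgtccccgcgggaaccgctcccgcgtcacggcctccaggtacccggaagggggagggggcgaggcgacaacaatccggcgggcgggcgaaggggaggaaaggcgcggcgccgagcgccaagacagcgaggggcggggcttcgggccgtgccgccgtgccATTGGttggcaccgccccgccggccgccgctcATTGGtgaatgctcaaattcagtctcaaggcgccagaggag
Cdca8 had 1 TTTGAA and 4 CCAAT matches, of which the TTTGAA and 1 CCAAT share bases in the last run of capitals; Cenpe had 1 CCAAT match and no TTTGAA. Clspn and E2f7 had 2 CCAAT matches each and no TTTNNCGC.

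Over the lists, TTTGAA stood in 22 of the 46 G2/M promoters that could be matched (47.8%), against 16% of all 27457 promoters and 9.84% of the 7623 promoters of tested genes. CCAAT stood in 36 of the 46 (78.3%) against 34.3% of all promoters and 36.6% of those of tested genes. In the G1/S list TTTNNCGC (GCGNNAAA on the other strand) stood in 11 of 44 (25%, against 4.35% and 7.75%), CCAAT in 24 of 44 (54.5%) and TTTGAA in 3 (6.82%). These are matches of letters in a fixed window, with no measurement of binding, and no test was made on the shares.

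Regulators of the cycle did not move as one group. Of 31 tested genes of a list of D cyclins, CDK inhibitors and quiescence genes, 6 rose and 13 fell (median -0.13). The list had 61.3% passing, beside 58.7% of all genes (28.3% higher, 30.5% lower). Mybl2, the B-Myb factor that activates mitotic genes, read 8.04, 7.67 and 7.91 at 6 h and 4.22, 5.01 and 4.70 at 24 h, well apart, and its difference was -3.23 ± 0.30 (SE; limma adjusted p = 3.06e-08). Rbl1, the p107 pocket protein, fell by 1.51 and Cdk2 by 1.25. Cyclin D1 (Ccnd1), the growth factor sensor of the cycle, rose by 0.67. The inhibitor Cdkn1a (p21) fell by 0.36, a call lost when the median of its probe sets was used (adjusted p = 0.0588), and Cdkn1b (p27) differed by -0.11 (adjusted p = 0.25; -0.32 and 0.0398 with the median of its probe sets). Myc differed by -0.05 (adjusted p = 0.809).

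**Figure D2:**
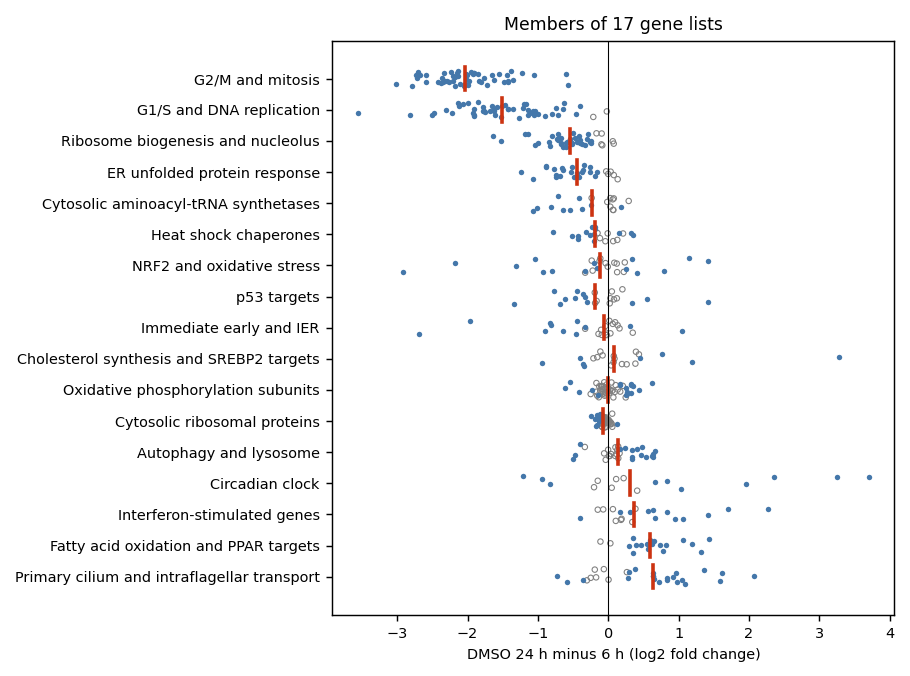
Each point is a tested member of 1 of 17 gene lists, placed by its log2 difference, DMSO 24 h minus 6 h; filled points passed the test, open points did not, and the red bar is the list's median. The G2/M and G1/S lists lie almost wholly to the left (medians -2.03 and -1.52), and the cilium and fatty acid oxidation lists mostly to the right (0.63 and 0.59).

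Several of the steepest falls were of genes in none of the lists. Sapcd2 (-3.27), Tube1 (-3.26), the epsilon tubulin of centrioles, Cep128 (-2.99), a centriole protein, Spdl1 (-2.93), a dynein adaptor at kinetochores, Traip (-2.97), a ubiquitin ligase, and Xrcc2 (-3.08), a DNA repair gene, were among the 15 largest decreases with no overlap between arrays. With the median of its probe sets Tube1 fell by 1.57. The largest fall was that of Mlf1, myeloid leukemia factor 1, which read 9.23, 9.51 and 10.02 at 6 h and 6.17, 5.66 and 5.69 at 24 h, a difference of -3.74 ± 0.22 (SE; adjusted p = 8.66e-11). Car3, carbonic anhydrase 3, fell by 3.38 (2.21 with the median of its probe sets). Rasa3, a Ras-inactivating protein, fell by 3.29, Rap1gap2, which inactivates Rap1, by 3.04, and the lipase Abhd2 by 3.08; Rasa3 ended at 2.42, and its fall was 1.71 when values under log2 4 were set to 4.

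Targets of growth factor signalling moved in both directions. Of 15 tested EGFR ligands and ERK feedback genes 6 rose and 6 fell, beside 28.3% of all genes higher and 30.5% lower. Etv5, an ETS factor induced by ERK, read 6.09, 6.63 and 6.69 at 6 h and 2.97, 3.08 and 2.46 at 24 h, with all 24 h arrays under log2 4; its difference was -3.63 ± 0.21 (SE; adjusted p = 8.68e-11), or -1.80 with the median of its probe sets. The ERK phosphatase Dusp6 fell by 1.29 and Phlda1 by 1.59, while the feedback inhibitor Spry1 rose by 1.35. Of 26 immediate early genes 2 rose, 1 with the median of probe sets, and 9 fell (median -0.07). Egr2, a zinc finger factor of the early response, fell by 1.97 (1.12 with the median of its probe sets), and Nr4a3, an orphan nuclear receptor, by 2.69 from 4.75 to 2.06 (0.75 with the floor at log2 4). Klf10 rose by 1.05. Fos, the archetype of the group, differed by 0.03 (adjusted p = 0.889). Egr1 fell by 0.44, a call lost without DMSO 6 h replicate 3 (adjusted p = 0.0501).

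Clock genes moved in both directions. Of 16 tested clock genes (19 on the array) 7 rose and 3 fell, beside 28.3% of all genes higher and 30.5% lower. In all 62.5% of the list passed, near the 58.7% of all genes. The output factor Dbp had the largest increase of all genes whose arrays did not overlap, reading 4.75, 3.53 and 4.58 at 6 h and 8.30, 8.0 and 7.67 at 24 h; the 24 h arrays all lay far above those of 6 h. Its difference was 3.70 ± 0.34 (SE; limma adjusted p = 2.73e-08). The repressor gene Per3 read 4.03, 4.23 and 3.40 at 6 h and 6.89, 7.12 and 7.37 at 24 h, a difference of 3.24 ± 0.28, and Hlf, a relative of Dbp, rose by 2.36. Per2 rose by 1.95 and Per1 by 1.03. With the median of their probe sets the increases were 1.71 for Per3, 1.02 for Hlf and 0.98 for Per2. No other probe set of Per3 or Per2 passed the filter, so their medians take in probe sets under it. The other 2 that rose were Nr1d2 (0.84), a repressor of Bmal1, and Cry2 (0.67). Bmal1 and Clock, the activators, fell: Bmal1 read 7.33, 7.17 and 7.15 at 6 h and 6.12, 5.88 and 6.02 at 24 h, a difference of -1.21 ± 0.18 (adjusted p = 1.16e-05), and Clock differed by -0.94. Cry1, a repressor, also fell, by 0.83. Nr1d1, near the floor at 3.68 and 4.09, did not pass (adjusted p = 0.0637), but did with the 6 arrays fitted alone (0.0384), no filter (0.048), the median of probe sets (0.035) or no intensity trend (0.0261). At 72 h in DMSO Dbp stood at 7.92 and Bmal1 at 5.65, and neither step from 24 h passed. With arrays at 6, 24 and 72 h only, a lasting change and a cycling level cannot be told apart. Nr1d2, Cry2, Clock and Cry1 are given to complete the counts and were chosen after their values were seen.

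**Figure D3:**
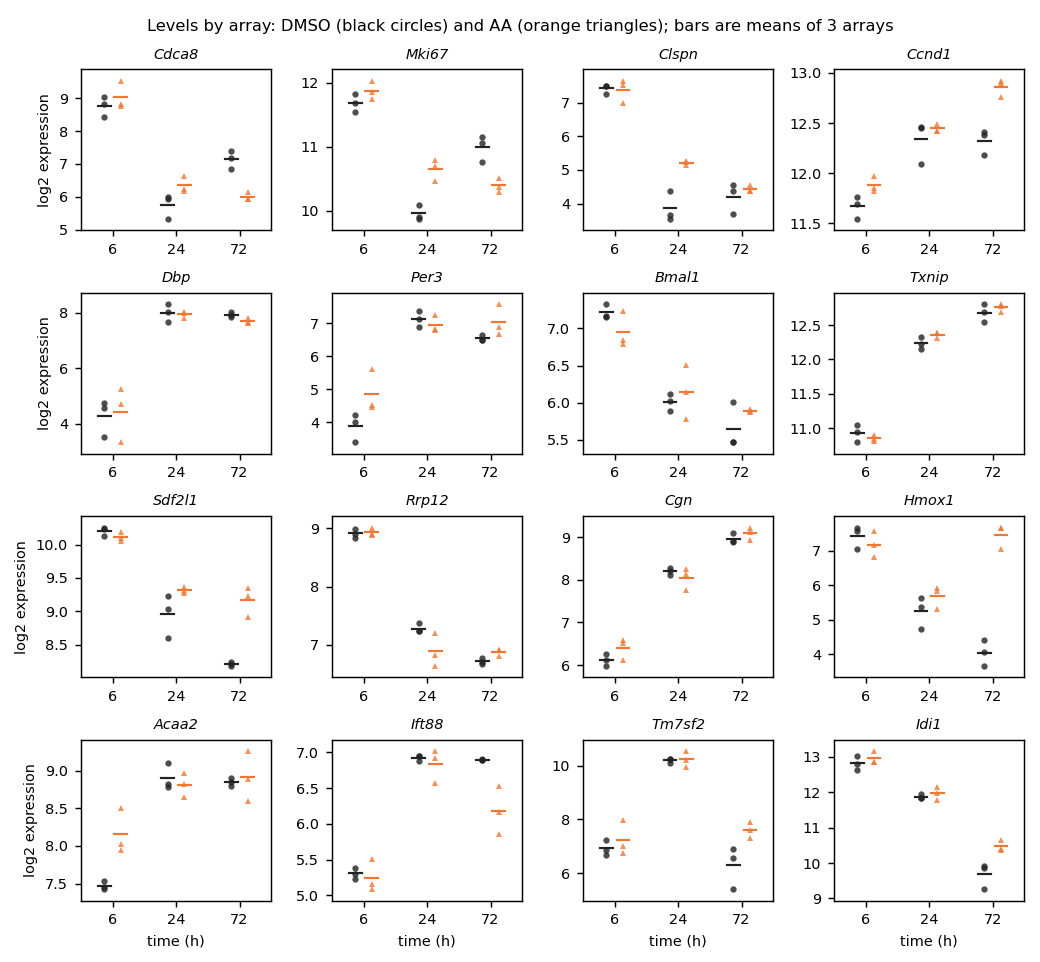
Log2 expression of 16 genes by array (y axes, each with its own range) at 6, 24 and 72 h (x axes), with DMSO arrays as black circles, AA arrays as orange triangles and bars for the mean of 3 arrays. Dbp rises from a mean of 4.29 to 7.99 in DMSO while Cdca8 drops from 8.77 to 5.75.

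Genes for building ribosomes and for protein folding in the ER declined. In ribosome biogenesis 37 of 43 tested members were lower at 24 h and none higher (median -0.54), beside 30.5% of all genes lower. Rrp12, a factor of ribosomal subunit export, read 8.99, 8.84 and 8.91 at 6 h and 7.37, 7.23 and 7.23 at 24 h, without overlap, a difference of -1.64 ± 0.12 (SE; limma adjusted p = 1.82e-09). Mrto4, an assembly factor of the large subunit, fell by 1.52, Gar1, a protein of RNA-modifying particles, by 1.18, and Polr1b, a subunit of RNA polymerase I, by 1.14. The E-box CACGTG, bound by Myc and clock factors, stood in 10 of 40 promoters of this list (25%), against 5.79% of all promoters and 8.93% of those of tested genes. In the other lists searched it stood in 2 of 13 clock promoters (15.4%), 4 of 44 G1/S (9.09%) and 3 of 46 G2/M (6.52%). Binding was not measured and the shares were not tested. Ribosomal protein genes themselves differed little: 1 rose and 9 fell of 40 and the median was -0.07. The 1 became 0 with centred arrays, with the 6 arrays alone, with no filter, with no trend, or without replicate 1 or 2 of either time, and the 9 became 2 with no intensity trend in the moderation, 4 with the 6 arrays fitted alone or with no filter, 5 without DMSO 6 h replicate 3 and 3 without DMSO 24 h replicate 3.

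Of 27 genes of the ER unfolded protein response 22 fell and none rose (median -0.45), again beside 30.5% of all genes lower. Sdf2l1, an ER chaperone cofactor, read 10.12, 10.23 and 10.25 at 6 h and 9.04, 9.23 and 8.59 at 24 h, a difference of -1.25 ± 0.13. Creld2 fell by 1.07, the co-chaperone Dnajc3 by 0.89 and the chaperone Hyou1 by 0.88. In the ATF4 and amino acid list 5 rose and 12 fell of 29, the 5 becoming 2 without DMSO 6 h replicate 2 and 3 without DMSO 24 h replicate 2. Mthfd2, a mitochondrial folate enzyme, fell by 2.67, Slc7a5, a leucine transporter, by 2.11, and Psph, of serine synthesis, by 1.24; the regulators Atf4 and Ddit3 fell by 0.44 and 0.51. Of 19 cytosolic aminoacyl-tRNA synthetases, which charge tRNAs, 9 fell and 1 rose (0 with centred arrays or without replicate 1 or 2 of either time); Cars1 fell by 1.07 and Yars1 by 1.01. Of 21 heat shock chaperones 11 fell and 3 rose, with Stip1 at -0.79.

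Antioxidant genes under NRF2, the factor that senses oxidative stress, were mixed: 6 rose and 9 fell of 27. This was near the shares over all genes, 28.3% higher and 30.5% lower. Hmox1, heme oxygenase 1, read 7.03, 7.57 and 7.66 at 6 h and 5.37, 5.63 and 4.73 at 24 h, without overlap, a difference of -2.18 ± 0.26 (SE; adjusted p = 9.64e-07). Aldh3a1, an aldehyde dehydrogenase, fell by 2.92 (1.79 with the floor at log2 4) and Srxn1, sulfiredoxin, by 1.31, while Ephx1, a detoxifying epoxide hydrolase, rose by 1.42. Of 21 p53 targets 3 rose and 9 fell. Of this list 57.1% passed and of the NRF2 list 55.6%, against 58.7% of all genes. Tp53inp1 fell by 1.34 and Gadd45a by 0.69. The zinc exporter Slc30a1 fell by 1.71.

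Transcripts of fatty acid oxidation were mostly higher at 24 h. Of 19 tested genes of the oxidation and PPAR list (27 on the array) 17 rose and none fell (median 0.59) against 28.3% of all genes higher. Acaa2, the thiolase of mitochondrial beta-oxidation, read 7.43, 7.46 and 7.54 at 6 h and 8.82, 8.78 and 9.11 at 24 h, a clear gap between the times, and rose by 1.43 ± 0.16 (SE; limma adjusted p = 2.35e-07). Eci1, an isomerase of the same pathway, rose by 1.31, Acadvl, which takes very long chains, by 1.19, and Decr1, needed for unsaturated chains, by 1.06. With the median of their probe sets Acaa2 rose by 0.72 and Eci1 by 0.67. Subunits of oxidative phosphorylation moved little, 12 up and 5 down of 52 (median -0.01), the 5 becoming 3 without DMSO 6 h replicate 3.

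Lipid synthesis genes gave single large changes. Tm7sf2, a sterol reductase of cholesterol synthesis, read 7.23, 6.67 and 6.87 at 6 h and 10.11, 10.26 and 10.25 at 24 h, an increase of 3.28 ± 0.31 (SE; adjusted p = 4.29e-08), and was back at 6.29 at 72 h. The cholesterol list as a whole had 4 up and 4 down of 21 (7 up and 1 down without DMSO 6 h replicate 1); Pmvk rose by 1.19 and Idi1, the isopentenyl isomerase, fell by 0.94. In fatty acid synthesis 7 rose and 2 fell of 18. Over all genes 28.3% were higher and 30.5% lower. Acss2, which makes acetyl-CoA from acetate, rose by 1.79, and the desaturases Fads1 and Fads2 rose by 1.65 and 1.64, while Gpam, the first enzyme of triglyceride synthesis, fell by 2.23.

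Sugar metabolism showed no common direction, 9 up and 10 down of 31, beside 28.3% of all genes higher and 30.5% lower. Hk2, an inducible hexokinase, read 5.63, 5.69 and 5.53 at 6 h and 2.90, 3.18 and 3.85 at 24 h, a difference of -2.31 ± 0.27 with all 24 h arrays under log2 4. Pfkm, a phosphofructokinase, rose by 1.40, Txnip, a brake on glucose uptake, by 1.31, and Vegfa differed by -0.10 (adjusted p = 0.623).

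**Figure D4:**
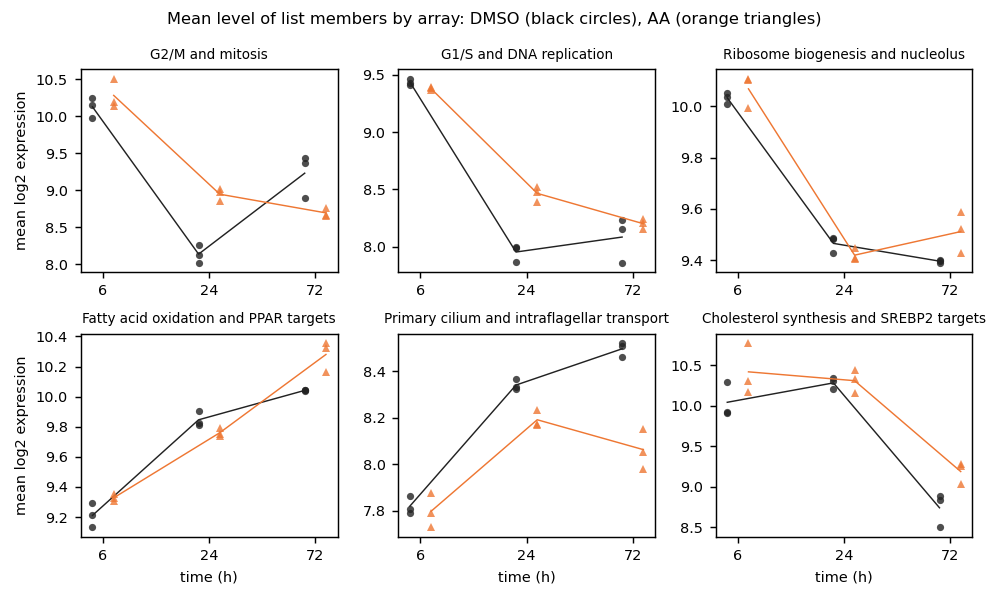
Mean log2 expression over the tested members of 6 lists (y axes, each with its own range) per array at 6, 24 and 72 h (x axes), with DMSO as black circles, AA as orange triangles and lines through the means of 3 arrays. In DMSO the mitosis list lies between 9.98 and 10.25 at 6 h, 8.02 and 8.26 at 24 h, and 8.90 and 9.43 at 72 h.

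Transcripts of the primary cilium were higher at 24 h. Of 29 tested cilium and intraflagellar transport genes 19 rose and 3 fell (median 0.63), where 28.3% of all genes rose and 30.5% fell. Ift88, a core protein of the transport trains, read 5.23, 5.39 and 5.30 at 6 h and 6.95, 6.94 and 6.88 at 24 h, with no overlap, an increase of 1.62 ± 0.16 (SE; limma adjusted p = 9.67e-08). Ift122 rose by 2.07 (1.11 with the median of its probe sets), Bbs2, of the BBSome cargo complex, by 1.59 and Ift43 by 1.35. Cfap69, a cilia and flagella protein outside the list, rose by 3.01 (1.52 with the median of its probe sets).

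Of 20 tested interferon-stimulated genes (27 on the array) 11 rose and 1 fell, with a median difference of 0.36, beside 28.3% and 30.5% of all genes; the 1 became 2 without DMSO 24 h replicate 2 and 0 without replicate 3. Mx2, an antiviral GTPase, read 3.42, 3.22 and 3.48 at 6 h and 5.42, 6.52 and 4.98 at 24 h, an increase of 2.27 ± 0.40. All its 6 h arrays lay under log2 4. The 24 h arrays spread widely but did not reach down to those of 6 h. The RNA sensor Rig1 rose by 1.70, the GTPase Gbp2 by 1.41 and Ifi44 by 1.06. Of 14 tested NF-kB and inflammation genes 5 rose and 4 fell; Icam1, an adhesion receptor, rose by 1.0. The 4 that fell became 2 with the 6 arrays fitted alone, with the replicate block or without DMSO 24 h replicate 2, and 1 without DMSO 24 h replicate 3. Of 30 autophagy and lysosome genes 13 rose and 3 fell; the lysosomal enzymes Ctsa, Gaa and Glb1 rose by 0.63, 0.63 and 0.62.

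Of 28 matrix genes 8 rose and 7 fell, near the shares over all genes (28.3% higher and 30.5% lower), the 8 becoming 4 with the median of probe sets. Col1a1, the type I collagen chain, read 11.75, 11.60 and 11.53 at 6 h and 9.71, 9.87 and 9.72 at 24 h, a difference of -1.86 ± 0.22; the laminin chains Lama3 and Lamb3 fell by 1.37 and 1.30, and fibronectin (Fn1) by 1.03. Postn, periostin, fell by 1.79. Cgn, cingulin of tight junctions, read 6.11, 6.27 and 5.99 at 6 h and 8.28, 8.21 and 8.11 at 24 h and rose by 2.08 ± 0.14 (adjusted p = 5.54e-10), and F11r, a junction adhesion protein, by 0.79. Of the 11 epithelial genes tested (29 on the array) 5 rose and 1 fell, the 1 being Cldn12, whose call was lost in 6 of 14 alternatives (without replicate 2 or 3 of either time, with the 6 arrays alone and with no filter; adjusted p up to 0.223). Of the 15 mesenchymal genes tested 2 rose, 1 with centred arrays, with the 6 arrays alone or without DMSO 24 h replicate 1 or 2, and 4 fell. Of 14 fibroblast and pericyte markers 4 were tested and 3 fell, Col1a1, Postn and Col1a2; Col1a2 (-0.55) lost its call in 6 of 14 alternatives, among them without replicate 1 or 3 of either time (adjusted p up to 0.119). The summed signal of those 4 was 15.2 to 15.3 (log2) at 6 h and 14.5 to 14.7 at 24 h, while Pdgfra (1.86 and 1.87), Dcn (1.86 and 1.88) and Lum (2.20 and 2.22) were near the lowest values at both times. The part of such cells in the falls of collagen and periostin was not tested. Of 11 endothelial markers Tek (4.55 and 5.41) and Egfl7 (6.41 and 5.99) were tested, and 9, Pecam1 among them (2.12 and 2.14), were not. Of 15 immune markers Cd14 was high (11.67 and 11.85) and Cd68 near log2 4 (3.76 and 4.06), while 13, with the common leukocyte gene Ptprc (2.68 and 2.73), did not reach the filter. In bulk RNA, fewer cells of a kind and less RNA per cell cannot be told apart.

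Of the 7 proximal tubule genes tested 3 rose and 2 fell, beside 28.3% of all genes higher and 30.5% lower. Gatm, of creatine synthesis, read 6.55, 5.92 and 5.03 at 6 h and 7.89, 7.62 and 7.66 at 24 h, an increase of 1.89 ± 0.33 (0.95 with the median of its probe sets), and the amino acid transporter subunit Slc7a9 rose by 1.0. Ggt1, a brush border peptidase, fell by 1.87 to 3.99, and Slc7a9 started at 4.03, both near log2 4. The 3 that rose include the water channel Aqp1, with means under log2 4 at both times, 2.08 and 3.21. Aqp1 had no difference with a floor at log2 4, and reached 8.43 at 72 h. The injury marker Cd44 fell by 1.67.

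Signalling genes gave a few large differences. Over all genes 58.7% passed, 28.3% higher and 30.5% lower. The share passing was 59.1% for Notch and Wnt, 46.7% for TGF-beta, 39.3% for SRF and YAP and 71.4% for glucocorticoid targets. Hey2, a Notch target, fell by 2.66 to 2.83 (1.49 with the floor at log2 4) and Wnt4 by 1.17, in a Notch and Wnt list with 9 up and 4 down of 22. Bmp4 rose by 1.12 and Tgfb2 by 0.97, and Ltbp2, a TGF-beta binding protein, fell by 1.92, in a list with 9 up and 5 down of 30. Of 28 SRF and YAP targets 7 rose and 4 fell, the 4 becoming 2 without DMSO 6 h replicate 1 or 2. Fkbp5 fell by 1.12 while Tsc22d3 rose by 0.99; both are known glucocorticoid targets, in a list with 5 up and 5 down of 14 (2 up with the median of probe sets, 3 without DMSO 24 h replicate 2). The other lists had mixed counts: 2 up and 9 down of 31 proteasome genes, 4 and 2 of 9 Bcl-2 family genes (1 up with the median of probe sets), 6 and 6 of 21 insulin and IGF genes, and 6 and 4 of 14 injury genes. Of 5 zinc genes 4 fell, or 2 without replicate 3 of either time; with the median of probe sets 2 fell and 1 rose, Mtf1 turning from -0.43 to 0.68. Of 1 loop and distal tubule, 2 endothelial and 2 immune genes tested, 1 rose, the endothelial receptor gene Tek (0.85).

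Of the genes with the largest increases several belong to none of the lists. Zc3h6, a zinc finger protein, read 4.38, 3.34 and 3.48 at 6 h and 7.39, 7.13 and 6.98 at 24 h, an increase of 3.43 ± 0.20. Tcea3, an elongation factor, read 6.01, 6.17 and 5.96 at 6 h and 8.99, 9.06 and 8.98 at 24 h, with little spread at either time, and rose by 2.96 ± 0.12 (adjusted p = 2.52e-12). Flot1, flotillin 1 of membrane rafts, rose by 2.65, Adhfe1, a mitochondrial enzyme, by 3.01, Atg10, an autophagy enzyme, by 2.89, and Esrrg, an orphan nuclear receptor of energy metabolism, by 2.84. The glutamate receptor subunit Grik5 rose by 2.74, Rtn1, a reticulon of the ER, by 2.71 and the deubiquitinase Usp11 by 2.72 (1.55 with the median of its probe sets). Dido1 read 6.12, 4.59 and 2.91 at 6 h and 7.55, 7.53 and 7.67 at 24 h, a wide spread at 6 h, and its increase of 3.04 was 2.02 with the median of its probe sets. Veph1 rose by 3.07 from 2.59, or by 1.65 with the floor at log2 4.

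The next step in DMSO, 72 h against 24 h, shares the 24 h arrays with the step above, so its values are given side by side only. In it 3095 genes passed (34.3%), 1551 higher (17.2%) and 1544 lower (17.1%). All 54 mitosis genes rose, with a median of 1.11, and 53 of the 54 had a lower mean at 72 h than at 6 h. Mki67 averaged 11.68, 9.96 and 10.99 at 6, 24 and 72 h. Of the 52 replication genes 13 rose and 4 fell (median 0.145), the 13 becoming 8 without DMSO 24 h replicate 3, DMSO 72 h replicate 1 or DMSO 72 h replicate 2, and Ccne1 fell further, by 0.70. The cholesterol genes, with no common direction up to 24 h, had 18 of 21 lower at 72 h (median -1.41), Idi1 falling by 2.19 and Tm7sf2 by 3.91. Col1a1 fell by a further 2.29, Icam1 rose by a further 0.96 and Rtn1 by 1.80.

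The same step was measured in the AA arrays, which share no array with the DMSO step. There 4729 genes passed (52.5%), 2252 higher and 2477 lower, a share of 47.6% higher that became 37.5% with arrays centred on their medians. Across the 9015 genes the differences of the steps had a Pearson r of 0.877; genes are not independent replicates. Of the 5296 genes called in DMSO, 3781 were called in the same direction with AA (71.4% of the DMSO calls and 80.0% of the AA calls) and 15 in the opposite one. In AA, 53 of 54 mitosis genes fell, with a median of -1.37, and 47 of 52 replication genes, with a median of -0.98. Dbp rose by 3.5 with AA, Hlf by 3.49 and Rrp12 fell by 2.05.

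The difference between the AA and DMSO steps was itself tested. It passed for 219 genes (2.43%), 131 higher (1.45%) and 88 lower (0.976%) in the AA step. In 149 of these the steps had one sign with the AA step smaller, in 12 one sign with the AA step larger, and in 58 opposite signs. Among them were 14 of the 54 mitosis genes and 14 of the 52 replication genes, all with the smaller fall in AA; E2f7 fell by 2.82 in DMSO and 1.30 in AA, a difference of 1.53 ± 0.31 (SE; limma adjusted p = 0.021), a call lost without AA 24 h replicate 2 (adjusted p = 0.0669). Rbl1 fell by 1.51 and 0.51 (difference 1.01 ± 0.18, adjusted p = 0.014). Flot1 rose by 2.65 and 1.47 (difference -1.18 ± 0.13, adjusted p = 0.00026); Rbl1, Flot1 and Nr4a3 kept the call in every alternative that gave them a value. With each array left out in turn, the 14 mitosis genes became 1 to 16 and the 14 replication genes 1 to 14. The count of 219 was 458 without AA 6 h replicate 1, 330 without DMSO 6 h replicate 1, 130 and 86 without DMSO 24 h replicates 1 and 2, 123 without DMSO 24 h replicate 3, 100 and 32 without DMSO 6 h replicates 3 and 2, 96 without AA 6 h replicate 3, and 94, 22 and 83 without AA 24 h replicates 1, 2 and 3. With arrays centred on their medians the split was 74 higher and 106 lower (41.1% higher, against 59.8%).

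**Figure D5:**
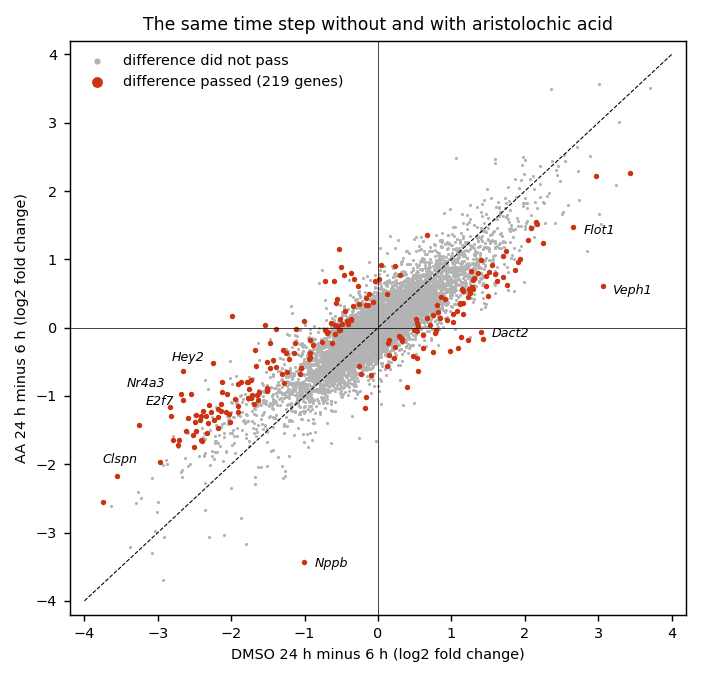
Each point is 1 of 9015 genes, with the log2 difference 24 h minus 6 h in DMSO on the x axis and in AA on the y axis; red points are the 219 genes whose steps differed by the test, and the dashed line marks equal steps. Most genes run along the line (r = 0.877), and most red points lie nearer to zero on the AA axis than on the DMSO axis, 149 of them with one sign in both.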

How the data were processed

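RNA extracted with Trizol was turned into biotin cRNA for an Affymetrix rat chip, per the labels' protocols. The submitters' processing notes name GCRMA, and the deposited values are log2 expression per probe set, normalized by the authors. The version of GCRMA is not given in the labels. Of 31099 probe sets, 20826 had 1 gene symbol (436 several, 9780 none, 57 controls). Of the 20826, 20758 were matched by gene number to a gene of GRCr8. Each of 14217 genes took the probe set with the highest mean over the 18 arrays, and the 9015 that reached log2 4 on 3 or more arrays went into limma 3.58.1 in R 4.3.3 (all 18 arrays, 6 groups, intensity trend, 12 residual degrees of freedom, Benjamini-Hochberg over all genes). The fit was also run on simulated data in which few genes changed, in DMSO 24 h only. In the real step 58.7% of genes passed, so that run does not show how the fit performs here.

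Genes named are the 15 largest increases and decreases without overlap between arrays, up to 4 called members by size per list, a fixed set of cell cycle, clock and stress genes, and the 5 largest step differences each way; others are marked. The 40 lists and the genes compared were chosen with earlier results of these data known. Alternatives were the arrays in the fit, centring, the filter, the probe set, the trend, a floor, the replicate block and leaving out each array. The median of a gene's probe sets takes in those under the filter, which can shrink a change. No scan date or batch label was used.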

Additional observations from a re-analysis of the deposited data

Results flagged for a closer look

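The test of the difference between the AA and DMSO steps from 6 h to 24 h singled out 219 genes. Of the genes described here, those lower in the AA step were Zc3h6 (AA step minus DMSO step -1.16), Veph1 (-2.46), Tcea3 (-0.75), Flot1 (-1.18), Dact2 (-1.46), Nppb (-2.42), Gys1 (-1.59) and Robo2 (-1.40). Those higher in the AA step were Mlf1 (1.18), Clspn (1.39), Tube1 (1.83), Traip (1.0), Melk (1.0), E2f7 (1.53), Chaf1a (0.95), Rbl1 (1.01), Nr4a3 (1.71), Hey2 (2.02), Arg2 (2.15) and Depdc7 (1.73). Dact2, an inhibitor of Wnt signalling, rose by 1.40 in DMSO and differed by -0.06 in AA. Nppb, a natriuretic peptide gene, had means under log2 4 in DMSO at both times. With the median of probe sets the difference was 0.09 for Tube1 and -0.38 for Robo2, and with a floor at log2 4 it was -1.08 for Veph1, 0.50 for Arg2 and 0.75 for Nr4a3. Depdc7 fell by 2.25 in DMSO and differed by -0.52 in AA. Of up to 20 alternatives for each, as many as 15 lost the call (Mlf1 and Chaf1a 15, Gys1 14, Arg2 13, Zc3h6 and Robo2 11, Tcea3 and Depdc7 10, Clspn 9); Flot1, Rbl1 and Nr4a3 lost it in none.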

How the results depend on the processing

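The DMSO count of 5296 ran from 4813 to 5017 with 1 array left out and from 5008 to 5320 in the other alternatives; the counts over all genes of the DMSO, AA and 72 h steps stayed within 1.5 times their values under these alternatives. With the replicate number as a block, 5320 DMSO genes passed, 5238 of them shared in the same direction. Deviations of same-numbered arrays correlated at -0.113, 0.0195 and 0.00466. With 3 arrays a group these values cannot show whether the numbers pair the arrays. The 219 genes of the step difference (131 higher, 88 lower) became 89 (68, 21) with the 12 arrays fitted alone, 78 (44, 34) with no filter and 138 (81, 57) with no intensity trend, 252 with the replicate block, and 74 were higher with centred arrays; the cause was not tested. With 1 array left out it ran from 22 to 458, the higher genes from 16 to 239 and the lower from 6 to 219. Mtf1 (-0.43) reversed to 0.68 with the median of its probe sets, where another probe set passed in the opposite direction, and Aqp1 had no difference (-0.0) with the floor at log2 4, since all its DMSO values at 6 h and 24 h lie below it. Of 183 called genes named by the rule, 19 lost the call in at least 1 of 14 alternatives, and 21 of 80 list counts moved by over 1.5 times in at least 1. Genes near log2 4 have only a coarse change, and 3 arrays a group limit the precision.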
